A study of Bos taurus with 6 samples.

Results

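The major histocompatibility complex (MHC) of cattle on chromosome 23 was taken as the windows with a start from 25000000 to 29000000 on the bovine genome UMD v3.1. This rule took 1332 of the 902984 windows, at chr23:25001993-29000992, and left 16176 other windows on the chromosome. Of the 1332 windows, 766 carried one of 158 gene labels and 566 carried none.

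Dermal fibroblasts, the collagen-producing cells of the skin, had been cultured from 3 Holstein heifers at 5 and again at 16 months of age. Each culture gave 1 library, which made 6 libraries with n = 3 at each age, all from cells at passage 5 that had received no treatment and no lipopolysaccharide. The animals were chosen by the study as middle responders to lipopolysaccharide, and no genetic modification is named for any of them. Their genomic DNA was put through MIRA-Seq, in which methyl-binding proteins recover sonicated fragments that carry methylated CpG sites, so that both more methylation and more CpG sites raise the reads of a window. CpG density was not measured here, and methylation reads give no check of the cell type by its transcripts.

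The MHC holds the genes with which cells show peptides to T cells. Class I molecules sit on nearly all cells and present peptides made inside the cell, class II molecules present ingested peptides on B cells, dendritic cells and macrophages, and the class III stretch between them holds complement, cytokine and heat shock genes with many housekeeping genes. In cattle an inversion has split class II into the IIa genes (DR and DQ), which lie beside class III and class I, and the IIb genes, which lie elsewhere on the chromosome. Methylation in vertebrates is often high over the bodies of genes in use and low at CpG-rich starts.

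Values are CPM, the reads of a window scaled to the reads of the library in M, per window of 3 kb, with the SD over the 6 libraries (n = 6) unless stated. Depth ran from 19925171 to 43573272 counted reads per library. A count of 0 allows up to 3 reads, which was 0.0689 CPM in the deepest library and 0.151 CPM in the shallowest, and this limit covers counting error only, since PCR copies were not removed here. The DQ, DR, class I, C4, CYP21, TNXB and HSPA1 genes have close copies, so how reads were shared among copies is uncertain for all of them. A window carries a single label, so a small or overlapping gene may be hidden by its neighbour.

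The MHC region carried less signal than the rest of its chromosome. Its mean level was 0.78 and 0.70 CPM per window in the 5- and 16-month cultures of animal 1, 0.74 and 0.66 CPM in those of animal 2, and 0.51 and 0.56 CPM in those of animal 3. The mean was 0.659 ± 0.105 CPM, against 0.904 ± 0.132 CPM over the rest of chromosome 23 and 0.980 ± 0.0258 CPM over the other autosomes. Both libraries of animal 3 were the lowest, in the region and over the rest of the chromosome. Within each library the region was below the rest of the chromosome, with a log2 ratio of -0.46 ± 0.06, or 1.37-fold lower, in 6 of 6 libraries (exact two-sided sign-flip permutation test, p = 0.03125 and adjusted p = 0.03125 over 4 comparisons of levels). This is the smallest p that 6 libraries allow. Pairs of libraries share an animal, so the 6 ratios are not independent, and with 3 animals as the units no p below 0.25 can be reached.

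Along the region the signal changed in steps. The class II side, with starts below 27000000, had 0.228 ± 0.0283 CPM over 666 windows and the class I side had 1.09 ± 0.192 CPM over the other 666. The highest library of the class II side, at 0.258 CPM, was far below the lowest of the class I side, at 0.847 CPM. The log2 ratio was -2.25 ± 0.21, negative in 6 of 6 libraries (exact sign-flip permutation test, p = 0.03125, adjusted p = 0.03125). The class II side takes in the ELOVL5 gene before class II and the NOTCH4 gene at the start of class III, with the highest window of the region. From the first to the last class IIa label against the first to the last class I label, the log2 ratio was -3.00, a larger difference. The sides differ in how much of them is labelled, at 33.6% of windows on the class II side and 81.4% on the class I side. Among labelled windows alone the log2 ratio was -1.33, and among unlabelled windows alone it was -2.13.

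The region was also divided at gene labels into 4 segments, with borders set after the values were seen, so that their levels are a description without a test. The flank from ICK to ELOVL5, before the class II genes, had 0.511 ± 0.0620 CPM over 116 windows. The class II segment at chr23:25350293-26972792 had 0.0952 ± 0.0186 CPM over 540 windows. The class III segment at chr23:26972793-27578792 had 2.13 ± 0.507 CPM over 202 windows, and the class I segment at chr23:27578793-29000992 had 0.712 ± 0.0997 CPM over 474 windows. Class III was thus the part that stood above the rest of the chromosome, in every library, and class II the part that stood far below it. In class III the libraries of animal 3, at 1.55 and 1.43 CPM, lay below the other 4, at 2.31 to 2.66 CPM. With the class III segment left out, the log2 ratio of the region to the rest of chromosome 23 was -1.18.

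**Figure D1:**
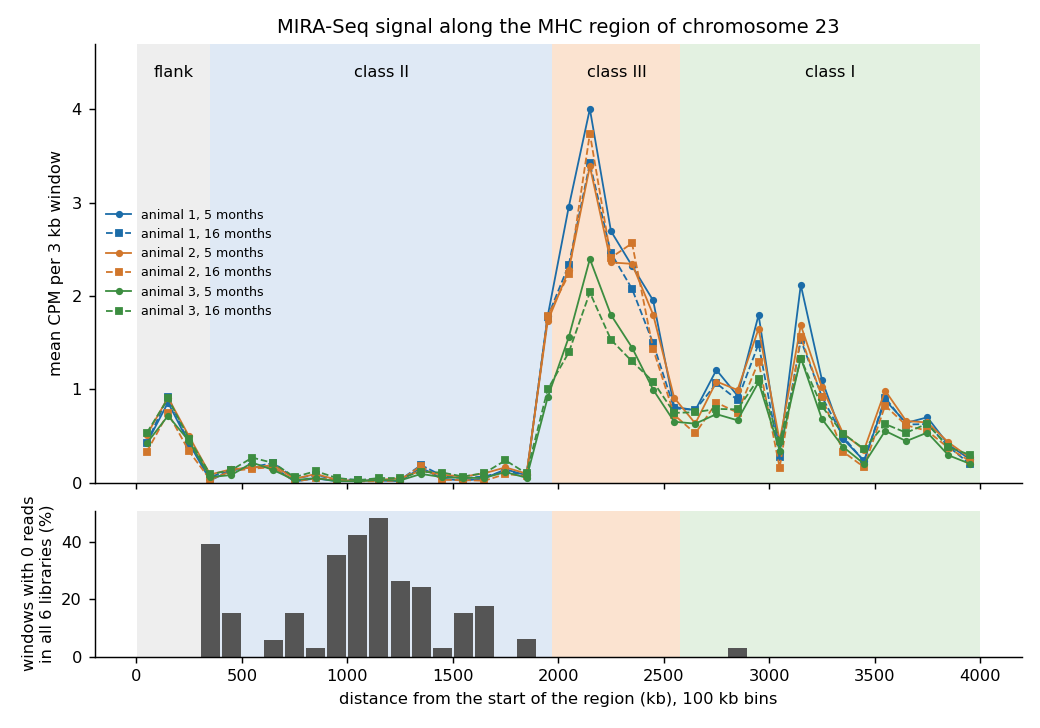
Mean CPM per window in bins of 100 kb along the region for each of the 6 libraries (top), and the share of windows with 0 reads in all 6 libraries (bottom, percent). The class II segment, most of it without a gene label, is nearly flat near 0. The signal steps up where class III begins and peaks at 3.16 ± 0.776 CPM in the bin centred 2150 kb into the region. The libraries of animal 3 are the lowest at that peak.

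Windows with no reads gathered on the class II side. In all 6 libraries together, 100 of the 1332 windows of the region (7.51%) had 0 reads, against 0.352% over the rest of chromosome 23 and 0.565% over the other autosomes. Of these 100, 99 lay on the class II side and 1 on the class I side. Windows longer than 3000 bp in the files also gathered there, with 24 of the region's 26 on the class II side. Without the windows at 0 reads the class II side was still lower, with a log2 ratio of -2.02. Whether reads can be placed in the windows at 0 was not tested.

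The class IIa genes encode the chains of the DR and DQ molecules and held the lowest labels of the region. BOLA-DQA1, a DQ alpha chain gene at chr23:25350293-25359292, had 0 reads in its 3 windows in every library, and HLA-DQA1, a label named after the human gene at chr23:25404293-25413292, likewise had 0 in its 3 windows. BOLA-DQB, a DQ beta chain gene between them, had 1 read in its 5 windows, in the 5-month culture of animal 3. The 21 windows from BOLA-DQA1 to HLA-DQA1 held 32 reads in all 6 libraries together, with 1 to 10 per library, and 15 of them had none. None of these windows had enough reads to be tested, so ages and animals were not compared in them. BLA-DQB, a DQ beta label further along the chromosome, had 0.0508 ± 0.0278 CPM per window.

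The DR genes had signal in single windows. The first window of BoLA-DRB3, the main expressed DR beta chain gene of cattle, at chr23:25470793-25473792, had 2.96 and 2.59 CPM in the 5- and 16-month cultures of animal 1, 1.99 and 2.65 CPM in animal 2, and 1.26 and 1.38 CPM in animal 3. The other 2 windows of the gene had 0.0299 CPM. The libraries of animal 3 were the lowest in this window, though after TMM scaling, which corrects for the composition of each library, its values of 2.04 and 2.08 CPM were close to the lowest of the others at 2.12 CPM. BOLA-DRB2, a second DR beta label, had 2.68 ± 0.739 CPM in the window at chr23:25552093-25555092, where the files place coding sequence 2, and 0.232 CPM in the next highest of its 15 windows. BOLA-DRA, the alpha chain gene, had 0.0599 CPM in its first window and 0.354 CPM in the other. BTNL2, a butyrophilin-like gene at the border of class II and class III in other mammals, had 0.394 ± 0.0624 CPM over 9 windows.

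The class IIb genes, at chr23:7009593-7249592 outside the region, are given for comparison only. BOLA-DYA and BOLA-DYB, the DY chain genes found in ruminants, had 0.353 ± 0.157 and 0.623 ± 0.280 CPM per window. TAP1 and TAP2, which carry peptides to class I molecules, had 1.78 ± 0.328 and 1.40 ± 0.468 CPM. PSMB8 and PSMB9, subunits of the immunoproteasome, had 2.00 ± 0.159 and 1.27 ± 0.285 CPM, and BRD2, a chromatin reader, had 0.535 ± 0.129 CPM. None of the labels examined there had a window at 0 in all libraries.

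Class III genes had the highest labels of the region. Of 52 labels of the class III list, 27 (51.9%) had at least 1 CPM per window and the median was 1.07 CPM. In the class IIa list, which holds BTNL2 beside the DR and DQ labels, 0 of 8 reached 1 CPM, with a median of 0.129 CPM. The class I genes had 3 of 5 and a median of 1.21 CPM, and the other genes of the class I side 19 of 42 and a median of 0.841 CPM. Of the 51 labels in no list 11 reached 1 CPM, with a median of 0.256 CPM. Over all 158 labels of the region 60 (38.0%) reached 1 CPM, and over 26209 labels of the genome 31.6% did.

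VARS, the valyl-tRNA synthetase gene, led the listed labels of at least 3 windows with 9.55 ± 3.19 CPM per window at chr23:27365793-27374792. Its level was 11.8 and 11.0 CPM in the 5- and 16-month cultures of animal 1, 10.9 and 12.5 CPM in those of animal 2, and 6.12 and 4.95 CPM in those of animal 3, which did not overlap the other 4. SKIC2, an RNA helicase of the exosome pathway that the files label LOC100139548, followed with 5.28 ± 1.67 CPM. NOTCH4, a Notch receptor of endothelial cells, had 4.47 ± 1.58 CPM, CCHCR1, a centrosomal coiled-coil gene of the class I side, 4.26 ± 1.26 CPM, and TNXB, which encodes the matrix protein tenascin-X, 4.16 ± 1.03 CPM. The level of NOTCH4 rests largely on a window at 22.6 CPM in which many reads lay on the same bases, and its next highest had 6.77 CPM. The 5 lowest labels of at least 3 windows in the gene lists were the 4 DQ labels and MUC21, a mucin gene with 0.146 ± 0.0637 CPM, and some labels in no list were lower than MUC21.

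The complement genes of class III were covered as well. C4A, complement component 4, had 2.20 ± 0.566 CPM per window at chr23:27173793-27197792, CFB, complement factor B, 2.29 ± 0.518 CPM and C2, complement component 2, 1.11 ± 0.191 CPM. AGER, the receptor for glycation end products, had 2.45 ± 0.885 CPM in its single window. HSPA1A, an inducible heat shock protein, had 4.42 ± 2.74 CPM over 2 windows, with a spread that came from 9.41 CPM in the 16-month culture of animal 2 and 1.56 CPM in that of animal 3. The cytokine genes were lower. TNF, tumour necrosis factor, had 0.40 and 0.67 CPM in animal 1, 1.06 and 0.33 CPM in animal 2, and 0.78 and 1.14 CPM in animal 3 at 5 and 16 months, with no order by age. LTB, lymphotoxin beta, had 0.460 ± 0.0951 CPM, and no window carried a label for LTA or GCLC.

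The labels of the class I genes had levels of 0.424 to 1.63 CPM per window. BOLA-A, a classical class I heavy chain gene at chr23:27644793-27653792, had 1.77 and 1.49 CPM per window in the 5- and 16-month cultures of animal 1, 1.71 and 2.32 CPM in those of animal 2, and 1.11 and 1.01 CPM in those of animal 3. BOLA-NC1, a non-classical class I gene, had 1.63 ± 0.538 CPM, with 2.90 CPM in its first window and 0.347 CPM in the other. That first labelled window carries coding sequence number 5, so it may not be the start of the gene. JSP.1, another class I label, had 0.955 ± 0.415 CPM, and MIC1, a stress-induced class I-like gene, had 1.21 ± 0.382 CPM. The label BOLA spread over 183 windows at chr23:27677793-28508792, interleaved with those of other genes, so it does not mark 1 gene, and had 0.424 ± 0.0791 CPM.

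The other genes of the class I side ran from 0.107 to 4.26 CPM per window. POU5F1, a pluripotency factor that differentiated cells keep silent, had 1.19 ± 0.248 CPM per window. ZFP57, a zinc finger protein that guards imprinted methylation, had 0.999 ± 0.282 CPM. GABBR1, a receptor for the transmitter GABA, had 0.825 ± 0.239 CPM and MOG, a myelin protein gene, 0.649 ± 0.154 CPM.

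**Figure D2:**
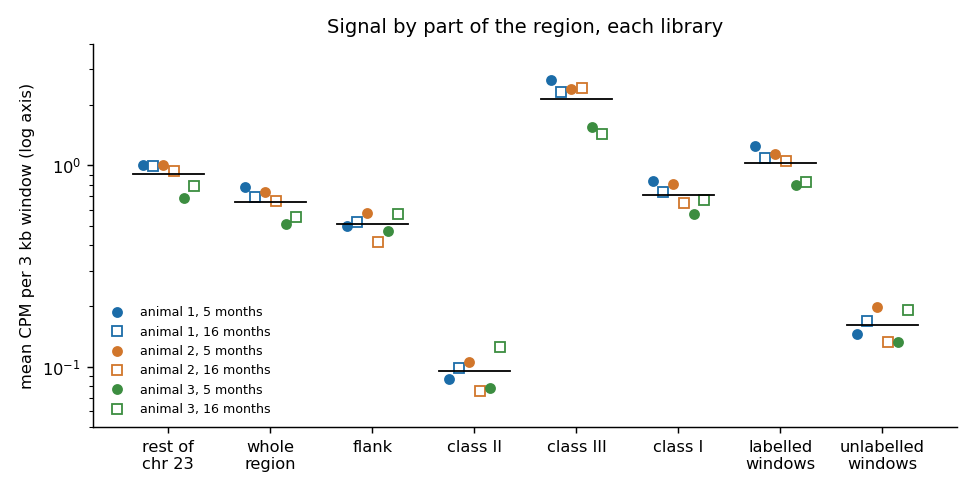
Mean CPM per window (log axis) in each library for the rest of chromosome 23, the whole region, its 4 segments, and its labelled and unlabelled windows, with filled circles for 5 months, open squares for 16 months and a line at the mean. Class III, at 1.43 to 2.66 CPM, lies above the rest of the chromosome in every library and class II, at 0.0757 to 0.125 CPM, far below it.

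The 10 windows with the highest level were all on genes of class III or, in 1 case, class I. The first was a NOTCH4 window at chr23:26987793-26990792 with 22.6 ± 9.18 CPM. Its highest depth at 1 position was 0.682 to 0.812 of its read count, against a median of 0.189 over 88 windows of the region with at least 50 reads in each library, so many of its reads lay on the same bases. VARS followed with 15.5 ± 5.84 CPM at chr23:27365793-27368792 and 12.1 ± 3.62 CPM in the next window. SKIC2 had 11.3 CPM in its window at chr23:27209793-27212792, and EHMT2, a histone H3 lysine 9 methyltransferase, 10.3 and 8.74 CPM in a neighbouring pair from chr23:27281793-27284792. TNXB had 9.32 and 8.47 CPM in a pair of windows, CYP21A2, the steroid 21-hydroxylase gene, 8.16 CPM, and DHX16, an RNA helicase of splicing, 8.86 CPM.

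Labelled windows carried most of the signal. They had 1.03 ± 0.180 CPM against 0.161 ± 0.0290 CPM in unlabelled windows. The lowest library of the labelled windows, at 0.795 CPM, was above the highest of the unlabelled ones, at 0.198 CPM. The log2 ratio was 2.67 ± 0.35, positive in 6 of 6 libraries (exact sign-flip permutation test, p = 0.03125, adjusted p = 0.03125). The same ratio was 1.62 on the class I side and 2.42 on the class II side. The files also number the coding sequences of a gene in some of its windows. The 409 labelled windows with such a number had 1.55 ± 0.329 CPM and the 357 without one 0.425 ± 0.0572 CPM.

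The first window of a label on its strand had less signal on average than the other windows of the labels. The 158 first windows had 0.879 ± 0.149 CPM and the 608 others 1.06 ± 0.189 CPM, with a log2 ratio of -0.27 ± 0.05 in 6 of 6 libraries (exact sign-flip permutation test, p = 0.03125, adjusted p = 0.03125). By medians over windows the ratio turned to 0.23 (exact sign-flip permutation test, p = 0.0625), and without the 1% of the genome's windows that held the most reads it was -0.12. Without the label BOLA it was -0.59. Of the 158 first windows 113 carry coding sequence number 1 or none, and for the rest the true start may lie under a neighbour's label. With only those 113 first windows the log2 ratio was -0.56.

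Gene by gene, a lower first window was more frequent than a higher one. Of 78 labels with at least 3 windows, the first window was below the mean of the others in 6 of 6 libraries in 41, above it in 11 and mixed in 26. Of the 32 labels with at least 1 CPM, it was lower in 24 and higher in 2. A few high windows can raise the mean of a label, so any single window may often lie below it. No such count is given here for other windows of the labels, so these counts cannot tell starts from other single windows. EHMT2 had 0.0380 CPM in its first window and 4.71 CPM per window in the others. BAG6, a chaperone gene, had 0.0621 against 3.28 CPM, PRRC2A, a gene for an RNA-binding protein, 0.0839 against 3.59 CPM, and ABCF1, a translation factor gene, 0.134 against 3.97 CPM. DDR1, a collagen receptor gene, had 0.305 against 4.39 CPM, and TRIM26, a ubiquitin ligase gene, 0.0854 against 2.72 CPM. The genes with a higher first window were VWA7, with 4.56 against 1.73 CPM, and TRIM10, with 3.50 against 1.75 CPM. TNXB was mixed, with 4.72 against 4.12 CPM, and its first labelled window has a coding sequence number above 1. BoLA-DRB3, below 1 CPM per window, had its signal in the first window. The genes set out here were picked after their values were seen.

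**Figure D3:**
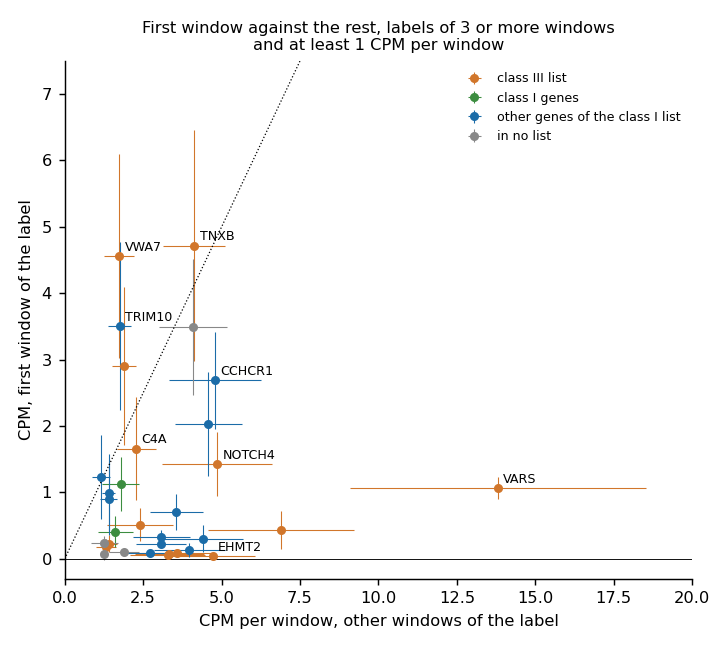
CPM of the first window against CPM per window of the other windows for the 32 labels with at least 3 windows and at least 1 CPM per window, with SD over 6 libraries as bars and the dotted line marking equal values. Many labels lie near 0 on the vertical axis, such as EHMT2 at 0.0380 CPM, and a few lie above the line, such as VWA7 and TRIM10.

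The ages were compared by pairing the cultures of each animal, with edgeR's quasi-likelihood test on all windows of the genome and Benjamini-Hochberg adjustment. Of the 1332 windows of the region 213 passed the filter on low counts, among them 5 of the 540 windows of the class II segment and 103 of the 202 of class III. At a false discovery rate (FDR) below 0.1 and a change of at least 2-fold, 0 of the 213 windows were called, against 0.185% of all windows tested. At an unadjusted p below 0.05 there were 20 (9.39%, against 7.10% of all), with 16 of them higher at 5 months. The lowest adjusted p in the region was 0.124. DESeq2 called 0 and had 7 windows at an unadjusted p below 0.05, against 15 and 2271 of 104658 over the genome. Log2 fold changes, positive where the 5-month cultures were higher, ran from -0.72 to 1.14, and 58 windows (27.2%, against 26.0% of all) changed the same way in all 3 animals.

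By sign, 142 of the 213 windows (66.7%) were higher at 5 months, against 52.6% of all windows tested. The median log2 fold change was 0.08, against 0.02 over all. Summed by label, 0 of 101 tested labels were called (0.0111% of all), 1 had an unadjusted p below 0.05 (0.621% of all), and 70 were higher at 5 months (53.0% of all). In bins of 50 kb 0 of 65 were called (0% of all), 1 had an unadjusted p below 0.05 (0.856% of all), and 50 were higher at 5 months (53.1% of all). Without animal 1, 51 of 103 labels, 30 of 66 bins and 137 of 219 windows were higher at 5 months. Without animal 2, 79 of 101 labels, 51 of 65 bins and 153 of 231 windows were. Without animal 3 the counts were 63 of 100 labels, 37 of 64 bins and 134 of 213 windows, and with scaling by library size only 40 of 65 bins were. The whole region differed between ages by log2 0.16, 0.16 and -0.11 in animals 1, 2 and 3, a mean of 0.07 ± 0.16 (n = 3) that did not exceed its spread (exact sign-flip permutation test, p = 0.5, where the smallest possible p is 0.25). The rest of chromosome 23 differed by 0.02, 0.10 and -0.20 in the same animals. Relative to it the region was higher at 5 months in 3 of 3 animals, by log2 0.13, 0.06 and 0.09, a mean of 0.10 ± 0.04 (n = 3, exact sign-flip permutation test, p = 0.25, the smallest possible). This relative difference was computed after the values were seen.

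The 5 windows with the lowest p by age were in C4A, ELOVL5, NEU1, TNXB and under the label BOLA, and none was called. A C4A window at chr23:27191793-27194792 had 6.80 and 2.67 TMM-scaled CPM in the 5- and 16-month cultures of animal 1, 2.55 and 1.78 CPM in those of animal 2, and 6.89 and 5.28 CPM in those of animal 3. The 5-month culture was the higher in all 3 animals, though the ages overlapped, with a log2 fold change of 0.77 ± 0.22 (SE) and an adjusted p of 0.124. A window in ELOVL5, a fatty acid elongase, at chr23:25175993-25178992 had 2.34 and 5.30, 2.98 and 5.80, and 4.16 and 4.27 CPM in the 3 animals. It was lower at 5 months in each, with the ages close in animal 3, and had a log2 fold change of -0.72 ± 0.22 and an adjusted p of 0.175. NEU1, a lysosomal sialidase, had 1.79 and 0.79, 1.36 and 0.40, and 3.12 and 1.93 CPM in its window at chr23:27308793-27311792, with a log2 fold change of 1.14 ± 0.38 and an adjusted p of 0.292. A TNXB window at chr23:27131793-27134792 had 2.34 and 5.97, 3.21 and 10.3, and 7.67 and 3.66 CPM, so animal 3 moved against the others, with an adjusted p of 0.329. A window under the label BOLA at chr23:28250793-28253792 had a log2 fold change of 0.75 ± 0.26 and an adjusted p of 0.329.

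Among labels, SLC44A4, a choline transporter-like gene of class III, had the lowest p. Its TMM-scaled CPM over 4 windows was 13.5 and 5.43 at 5 and 16 months in animal 1, 6.57 and 2.91 in animal 2, and 12.3 and 8.15 in animal 3. The 5-month culture was higher in all 3 animals, with a log2 fold change of 1.02 ± 0.42 and an adjusted p of 1. Next came DOM3Z, an RNA decapping gene, at 0.56, AGPAT1, a gene of phospholipid synthesis, at 0.51, MIC1 at 0.61 and CSNK2B, a casein kinase subunit, at 0.87 on the log2 scale, each with an adjusted p of 1. By list, 31 of 41 tested class III labels and 22 of 31 of the other class I side labels were higher at 5 months by sign. So were 2 of 5 class I genes and 0 of 3 labels of the class IIa list, which includes BTNL2. Over the genome 53.0% of tested labels were higher at 5 months. Without animal 1, 51 of 103 tested labels of the region were, and no counts by list are given for that setting.

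**Figure D4:**
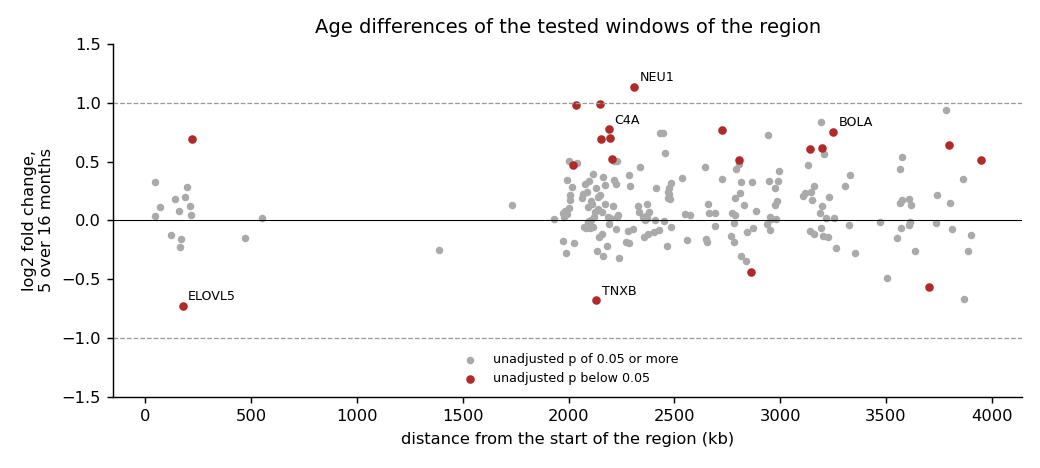
Log2 fold change (5 over 16 months) of the 213 tested windows against their distance from the start of the region in kb, with red points at an unadjusted p below 0.05 and dashed lines at 2-fold. No window was called, the widest change was 1.14 in NEU1, and few windows of class II could be tested.

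Leaving out animal 3 gave the only calls by age in windows of the region. There were 6 of 213, against 1278 of 103419 (1.24%) over the genome, where 194 of 104658 were called with all 3 animals. PPT2, a lysosomal thioesterase, LOC781663 and C4A were higher at 5 months, by 1.35, 1.12 and 1.02 on the log2 scale. ELOVL5, TNXB and RNF39, a ring finger gene, were lower, at -1.05, -1.51 and -1.02. With all 3 animals the same windows had adjusted p-values of 0.124 to 0.504.

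Differences between animals that both ages share were tested in the same model. Of the 213 windows 36 (16.9%) were called at an FDR below 0.1 and a range of at least 2-fold, against 20.6% of all windows tested. Animal 3 was the highest in 28 of the 36, and animal 2 the lowest in 23. Among all 213 tested windows of the region animal 3 was the highest in 70 and animal 2 the lowest in 73. The direction moved with the level of the window. Of 30 tested windows of at least 5 CPM, animal 3 was the lowest in 26, and of 82 windows under 2 CPM it was the highest in 42. Such counts over the whole genome are not given here, so these directions cannot be called particular to the region. The libraries of animal 3 were also the lowest over the rest of chromosome 23, at 0.689 and 0.793 CPM per window against 0.941 to 1.01 CPM, and had TMM factors of 0.718 and 0.850 against 1.03 to 1.22. The part of this library-wide spread in the calls was not tested, and the animal cannot be told apart from any handling that its 2 libraries shared.

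The 5 windows with the lowest p between animals were on ELOVL5, CFB, HSPA1A, C4A and DHX16. The ELOVL5 window at chr23:25217993-25220992 had 7.06 and 3.96 TMM-scaled CPM in animal 3, and 0.941 to 2.48 CPM in the other 4 libraries. The CFB window at chr23:27227793-27230792 had 4.24 and 4.06 CPM in animal 3 and 0.842 to 2.34 CPM in the others. In both, animal 3 did not overlap the others. HSPA1A differed the other way, with 6.43 and 9.46 CPM in animal 2 and 2.44 to 4.20 CPM in the others at chr23:27332793-27335792. Its adjusted p was 2.15e-05, and its second window was called as well. In that second window animal 2 had 4.94 and 10.6 CPM and animal 3 had 6.37 and 2.29 CPM, so these animals overlapped. The C4A window described for age had 2.55 and 1.78 CPM in animal 2, and in animal 1 it had 6.80 CPM at 5 and 2.67 CPM at 16 months. DHX16 had 5.11 and 3.56 CPM in animal 3 at chr23:28139793-28142792, above 1.29 to 2.34 CPM in the others.

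Without animal 3, 3 of 213 windows of the region were called between animals 1 and 2, against 1476 of 103419 (1.43%) over the genome. They were the C4A window and both HSPA1A windows. The ELOVL5, CFB and DHX16 windows were not called without animal 3, with ranges of 0.26, 0.67 and 0.25 on the log2 scale. The HSPA1A and C4A windows were not called without animal 2, with ranges of 0.20 and 0.41, and with no filter on low counts none of these 5 windows was called. The range of the HSPA1A window at chr23:27332793-27335792 was 1.25 on the log2 scale with all animals and 1.15 between animals 1 and 2.

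**Figure D5:**
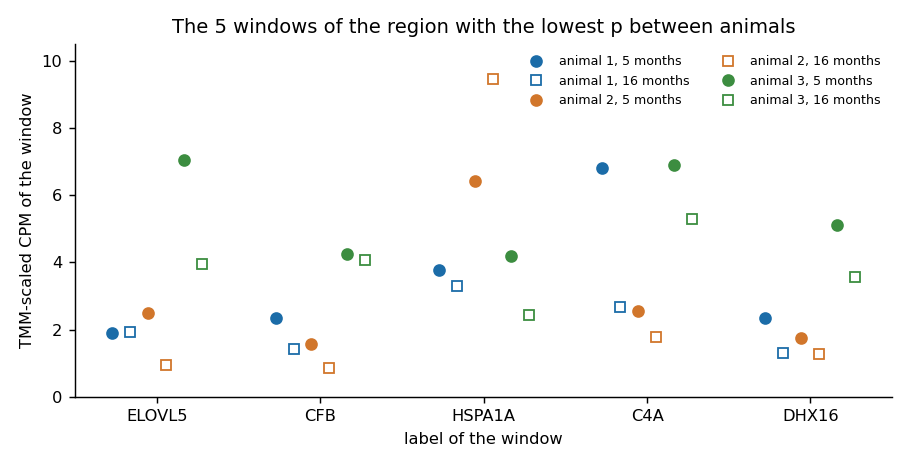
TMM-scaled CPM of the 5 windows with the lowest p between animals, with filled circles for 5 months and open squares for 16 months. Animal 3 is the highest in the ELOVL5, CFB and DHX16 windows and animal 2 in HSPA1A, while the C4A window is split by age in animal 1.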

How the data were processed

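The authors aligned filtered reads to UMD v3.1 with NextGENe 2.3.4 and deposited raw counts of reads in consecutive windows of 3 kb. The highest depth of coverage, a signal in the deposited files that the authors did not scale, was used only for stacked reads. The sources used here do not say how reads with several matches were placed. Gene labels are those of the files, and 8 of 44 LOC labels had a RefSeq symbol (ARS-UCD2.0, names only).

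Windows, sums by label and 50 kb bins that reached 1 CPM in 3 or more of the 6 libraries were tested genome-wide in R 4.3.3 with edgeR 4.0.16 (TMM, quasi-likelihood test, animal as a block, Benjamini-Hochberg), with 2 residual and 178 prior degrees of freedom for windows. DESeq2 1.42.0 was an alternative. Positive log2 fold changes are higher at 5 months. Standard errors are the log2 fold change over the root of F. Levels were compared by exact two-sided sign-flip tests in Python 3.11.15 with numpy 2.4.6 and pandas 2.3.3. Figures used matplotlib 3.10.9. Scripts were tested on simulated data.

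The pairing comes from the animals, each sampled at both ages. Over all windows tested, deviations of the libraries from their age mean correlated at 0.290, 0.544 and 0.710 in animals 1, 2 and 3. Over the tested windows of the region they correlated at 0.195, 0.472 and 0.571.

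Genes and windows were named by rule: the 10 highest windows, the 5 windows and 5 labels with the lowest p by age, the 5 windows with the lowest p between animals, the 5 highest and 5 lowest list labels of at least 3 windows, and a list of class IIa, class I and other known MHC genes. Class IIb genes and first-window examples were added after their values were seen. The members and lists were chosen with earlier results of these data known. Alternatives were other tests, scalings, filters, no block, medians and leaving out each animal.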

Additional observations from a re-analysis of the deposited data

How the results depend on the processing

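The 4 comparisons of levels (region against the rest of chromosome 23, class II against class I side, labelled against unlabelled, first against other windows) kept their log2 ratios of -0.46, -2.25, 2.67 and -0.27 with the 3 animals as units, but p was then 0.25 by the exact sign-flip test, the smallest possible. Leaving out each animal gave ranges of -0.47 to -0.45, -2.34 to -2.19, 2.56 to 2.83 and -0.29 to -0.26, each with an exact p of 0.125, the smallest for 4 libraries. Only the ratio of first to other windows reversed, to 0.23 by medians over windows (exact p = 0.0625), and medians gave no value for class II against class I side and labelled against unlabelled, where a median was 0. Settings chosen after seeing the data kept the direction of all 4. Leaving out each animal gave 0 to 6 age-called windows (6 without animal 3), 0 to 1 bins (1 without animal 2), 0 labels, and 0.02 to 0.16 for the log2 age difference of the region, which was 0.10 relative to the rest of chromosome 23. Over the genome the calls were 1278 of 103419 windows without animal 3. Without animal 2 they were 469 of 51770 bins and 278 of 18215 labels. Without the replicate block 0 windows, 0 labels and 0 bins of the region were called by age, as with it. Windows of the region at an unadjusted p below 0.05 fell from 20 with the block to 2 without it. Over the genome, windows called by age fell from 194 to 0 and labels from 2 to 0. The age difference of the region was 0.07 without the block (exact permutation test, p = 0.7). Windows called between animals numbered 36 of 213 in the main test, against 21512 of 104658 over the genome. With no CPM filter there were 0 of 1232 (genome 221 of 884574). Scaling by library size only gave 62 of 213 (genome 31436 of 104658) and DESeq2 21 of 213 (genome 12323 of 104658). With each animal left out there were 3 to 36, and without animal 3 there were 3 of 213 (genome 1476 of 103419). For the 5 windows and 5 labels with the lowest p by age and the 5 windows with the lowest p between animals, 117 values under the alternatives kept their direction and side of the threshold, 10 lost a call, 3 gained one and none reversed. The range between animals is never negative, so only the values by age could reverse. The causes were not tested. Counts of few reads limit what can be called in class II, where 5 of 540 windows of the segment were tested.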
